A study of Mus musculus with 6 samples.

Results

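Transcripts of the Rufy family and of genes that build autophagosomes and join them to lysosomes were examined in dendritic cells grown from bone marrow (BMDCs) of WT mice and of mice lacking Nfkb2, the gene of the p100 precursor and p52 subunit of noncanonical NF-κB. The members are 10 genes, namely Rufy1, Rufy2, Rufy3, Rufy4, Plekhm1, Rab7, Sqstm1, Map1lc3a, Map1lc3b and Atg5, of 56748 gene IDs counted. All 10 were found by symbol, and all 10 were among the 21849 named genes whose counts summed to 50 or more over the 6 libraries. The set was chosen by a measured value: it was assembled around Rufy4 because Rufy4 rises in these same Nfkb2-/- libraries, and its partners were added from their known roles. The Rufy4 values are therefore given as a description without a test.

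The study compared 3 WT and 3 global Nfkb2-/- RNA-seq libraries of unstimulated BMDCs by polyA RNA. In both genotypes, bone marrow cells received 20 ng/mL GM-CSF for 5 days and then GM-CSF with 10 ng/mL IL-4 for 4 days, so every library comes from cells exposed to IL-4. Cells that did not adhere were collected on day 9. The knockout is global, so the marrow progenitors and the cells that differentiated from them all lacked Nfkb2. The paper calls the 3 libraries of each genotype independent biological replicates. The ages of the mice and whether each library came from its own animal are not given in the sources used here. The p-values therefore measure the spread between these libraries, which need not be a spread between mice.

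RUFY proteins carry a RUN domain and coiled coils, and most forms end in a FYVE domain that binds phosphatidylinositol 3-phosphate on endosomes. In autophagy, a double membrane decorated with lipid-bound LC3 encloses cargo, and the small GTPase Rab7 with tethering factors then brings the autophagosome to the lysosome. RUFY4 is known in dendritic cells as a protein induced by IL-4 that acts with Rab7 in autophagosome formation and in the clustering of late endosomes and lysosomes.

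RefSeq promoter windows of GRCm38.p6, reaching 250 bases before and 50 bases after an annotated start, were found for 9 of the 10 members. Map1lc3a had no entry. The windows are shown for Rufy4, around which the set was built, and for the members with a κB or CLEAR-type match before the start. The Rufy4 line gives the 250 bases before the start at chr1:74125291-74125540 on the plus strand. The Sqstm1 line gives 60 bases at chr11:50210821-50210880 on the minus strand, and the Atg5 line 60 bases at chr10:44268279-44268338 on the plus strand. Capitals mark the motif match, and Rufy4 has none.
Rufy4: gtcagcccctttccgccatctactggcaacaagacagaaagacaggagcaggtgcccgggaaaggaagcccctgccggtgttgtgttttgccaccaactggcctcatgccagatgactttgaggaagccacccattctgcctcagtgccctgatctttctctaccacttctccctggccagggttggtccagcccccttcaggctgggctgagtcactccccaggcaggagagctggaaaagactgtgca
Sqstm1: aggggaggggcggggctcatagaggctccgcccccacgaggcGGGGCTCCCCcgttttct
Atg5: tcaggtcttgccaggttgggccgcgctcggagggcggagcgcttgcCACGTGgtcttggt

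Both strands of the windows were searched for CACGTG, the E-box core of the CLEAR element of lysosomal genes, and for the κB consensus. The 9 members had 11 windows, and a member was counted if any of its windows matched, whereas the shares below are per window. CACGTG was present in 2 of the 9 members, in Atg5 with its first base 14 bases before the start and in Rufy1 with its first base 5 bases after it. Among all 32851 promoter windows, 7.15% held it. The κB consensus was matched in 1 of the 9, Sqstm1, with the first base 18 bases before the start, against 4.51% of all windows. A STAT6-type motif, TTC and GAA with 4 bases of any kind between them, was searched for after the expression values had been seen and matched 0 of the 9 members, against 6.95% of all windows. A match is only a run of letters in a short window, and a window without one says nothing about binding elsewhere.

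Libraries held between 29863927 and 55623068 counts. Nfkb2 itself was measured at 215, 154 and 355 CPM (counts scaled to TMM-normalized library size) in the WT libraries and at 44.8, 32.3 and 32.6 CPM in the Nfkb2-/- libraries, a log2 fold change of -2.72 (edgeR adjusted p = 0.0307). The labelled genotype and this gene therefore went the same way in all 6 libraries. Nfkb2-/- replicate 1 stood apart, with a count on 47952 genes against 27692 to 33841 in the others, and the first principal component, with 45.2% of the variance, separated it from the rest. Defining markers of dendritic cells were present in every library, their 10 transcripts summing to 5650 to 10500 CPM in WT and 7410 to 8490 CPM in Nfkb2-/- cells. The sum hides differences among them. Itgax was at 160, 277 and 123 CPM in WT and 745, 769 and 716 CPM in Nfkb2-/- libraries (log2 fold change 1.99, edgeR adjusted p = 0.0414). It was the 1 of the 10 past the edgeR threshold, beside 1.14% of all genes. The groups did not overlap for 3 of the 10, beside 24.7% of all genes, with Itgax and Cd86 higher and Zbtb46 lower. The sum of 10 macrophage markers was 1080, 1250 and 188 CPM in the WT libraries and 723 to 931 CPM in Nfkb2-/- libraries, and all 10 were lowest among WT in WT replicate 3. Granulocyte markers, 7 of 8 tested, summed to 83.7 to 227 CPM in WT and 117 to 125 CPM in Nfkb2-/- libraries. Markers of mast cells, basophils and eosinophils, 8 of 9 tested, summed to 50.3 to 72.9 and 63.5 to 71.4 CPM, and stromal markers to 0.998 to 53.5 and 5.67 to 25.5 CPM. Among those 8, Cpa3 was the 1 past the edgeR threshold, with means of 7.98 CPM in WT and 2.23 CPM in Nfkb2-/- cells (log2 fold change -1.84, edgeR adjusted p = 0.0413). The groups did not overlap for 4 of the 8, beside 24.7% of all genes. Of these, 3 were lower and 1, Gata2, was higher, with means of 1.31 and 3.64 CPM. Tested B cell and T and NK cell markers summed to at most 4.96 and 4.05 CPM, both highest in Nfkb2-/- replicate 1, and 0 of 5 erythroid markers passed the count filter.

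Rufy4 (chr1:74125541-74148223, plus strand, GRCm38) was the family member with the largest difference between the genotypes. It had 23, 48 and 24 counts in the WT libraries and 647, 502 and 532 counts in the Nfkb2-/- libraries. After normalization these were 0.546, 1.48 and 0.826 CPM in WT and 19.1, 16.5 and 9.95 CPM in Nfkb2-/- libraries. The groups did not overlap, and the lowest Nfkb2-/- value, replicate 3, still lay several times above the highest WT value, replicate 2. The means were 0.949 ± 0.478 CPM (SD, n = 3) in WT and 15.2 ± 4.73 CPM in Nfkb2-/- cells, and the fitted fold was 16.1, a log2 fold change of 4.01 with a standard error of 0.44. Since this contrast chose the set, nothing further is read from its size. In bulk RNA, more transcript per cell and more cells carrying the transcript cannot be told apart.

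The other RUFY genes were measured at intermediate levels and did not follow Rufy4. Rufy3 (chr5:88565040-88651392), whose protein binds Arl8b and positions lysosomes near the nucleus through dynein, was at 73.5, 74.9 and 75.4 CPM in WT and at 47.7, 57.8 and 53.8 CPM in Nfkb2-/- libraries. All 3 Nfkb2-/- values lay below the WT values, which were within 2 CPM of each other. The log2 fold change was -0.49 (SE 0.14) and missed the threshold in edgeR (adjusted p = 0.135), whereas DESeq2 gave an adjusted p of 0.0186, the lowest over 14 alternatives that reached up to 0.488. Rufy1 (chr11:50389286-50431125), an endosomal protein known as a Rab4 and Rab14 effector, was at 15.8, 14.6 and 14.2 CPM in WT and 15.3, 16.5 and 18.8 CPM in Nfkb2-/- libraries. Its groups overlapped, with a log2 fold change of 0.19 (SE 0.16, edgeR adjusted p = 0.587). Rufy2 (chr10:62980223-63017210), also an endosomal FYVE protein, was at 52.3, 48.6 and 43.0 CPM in WT and 37.8, 45.0 and 47.0 CPM in Nfkb2-/- libraries. These groups overlapped as well, with a log2 fold change of -0.15 (SE 0.15, edgeR adjusted p = 0.66).

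**Figure D1:**
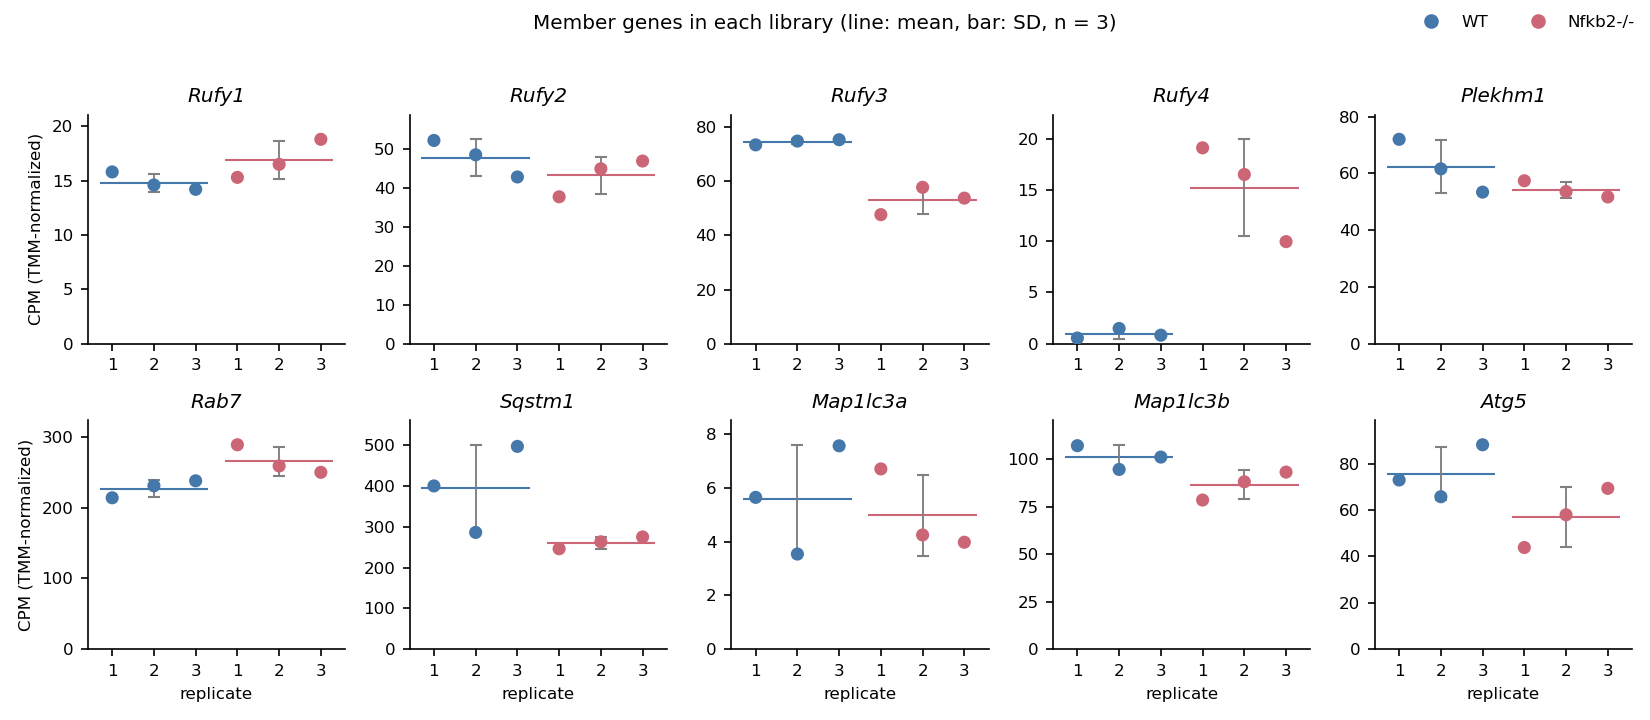
TMM-normalized CPM of each member in the 3 WT libraries (blue) and the 3 Nfkb2-/- libraries (red), with the group mean as a line and the SD as a bar, on a separate linear axis from 0 for each gene. Rufy4 is near 0 in WT and between 9.95 and 19.1 CPM in Nfkb2-/- cells, whereas the other genes change by far less.

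Divided by exon length, the makeup of the family differed between the genotypes. Rufy4 was 1.2%, 3.3% and 1.95% of the summed RUFY level per kilobase in the WT libraries and 35.5%, 29.3% and 19.3% in the Nfkb2-/- libraries, values that again include the gene the set was chosen on. Without Rufy4, the summed level of Rufy1, Rufy2 and Rufy3 was 19.4, 18.6 and 17.8 CPM per kilobase in WT and 14.9, 17.2 and 17.9 CPM per kilobase in Nfkb2-/- libraries. These sums overlapped, with Nfkb2-/- replicate 1, the library that stood apart, the lowest. Rufy3 held the largest share among the 4 genes in all WT libraries, between 36.8% and 40.6% of the level per kilobase. In Nfkb2-/- libraries its share was 20.2% to 23.8%, a value that Rufy4 lowers by adding to the sum. With Rufy4 left out of the sum, Rufy3 made up 37.2%, 39.4% and 41.4% in WT and 31.4%, 33.0% and 29.5% in Nfkb2-/- libraries.

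**Figure D2:**
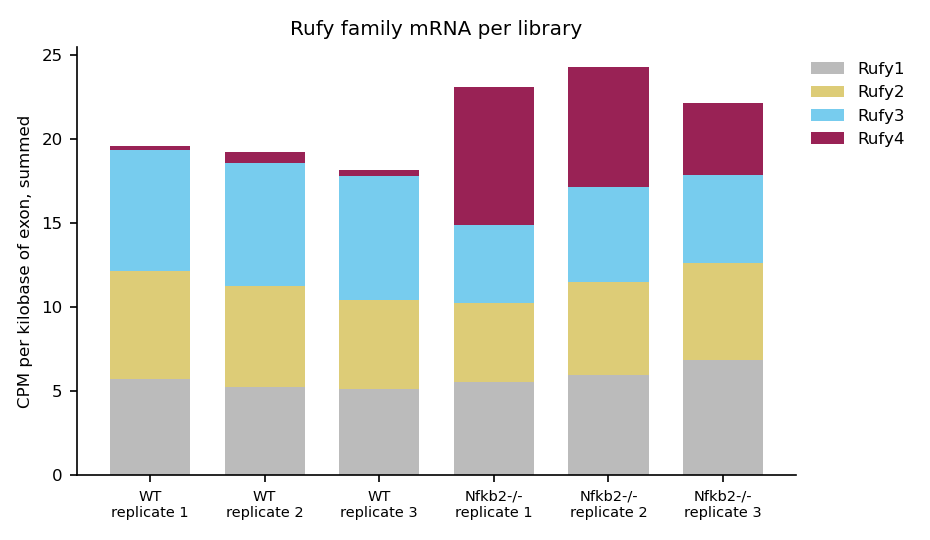
Stacked levels of Rufy1, Rufy2, Rufy3 and Rufy4 in each library, as CPM per kilobase of exon. Rufy4 is a thin band in the WT bars and makes up 19.3% to 35.5% of the Nfkb2-/- bars.

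Rab7 and Plekhm1 act where autophagosomes and endosomes meet the lysosome. Rab7 (chr6:87999106-88045270), the late endosomal GTPase, was at 214, 231 and 238 CPM in WT and at 289, 259 and 250 CPM in Nfkb2-/- libraries. The groups did not overlap, but the distance between the nearest libraries was small, and the log2 fold change of 0.23 (SE 0.14) did not pass the test (edgeR adjusted p = 0.464). Plekhm1 (chr11:103364275-103412687), an adaptor that binds Rab7, LC3 and the HOPS tethering complex, was at 72.0, 61.6 and 53.4 CPM in WT and 57.4, 53.6 and 51.7 CPM in Nfkb2-/- libraries. Its groups overlapped, and its log2 fold change was -0.20 (SE 0.16, edgeR adjusted p = 0.555).

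Sqstm1 (chr11:50199366-50210827), the gene of the cargo receptor p62, was at 400, 286 and 497 CPM in WT and at 246, 263 and 275 CPM in Nfkb2-/- libraries. The WT libraries were spread widely, with a coefficient of variation of 26.8% against 5.69% in Nfkb2-/- cells. All 3 Nfkb2-/- values were below the lowest WT value, that of WT replicate 2. The log2 fold change was -0.60 with a standard error of 0.22, and the difference did not pass the test (edgeR adjusted p = 0.222). WT replicate 3, which had the highest Sqstm1 value, was also the library with the lowest macrophage marker sum, and the part of that difference in the result was not tested. Without it, the log2 fold change of Sqstm1 was -0.39 (edgeR adjusted p = 0.374, within a range of 0.0526 to 0.485 over the alternatives).

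Atg5 (chr10:44268358-44364291) encodes a component of the complex that attaches LC3 to lipid. It was at 72.9, 65.7 and 88.1 CPM in WT and at 43.8, 57.9 and 69.3 CPM in Nfkb2-/- libraries, so that only the highest Nfkb2-/- library reached into the WT range. The log2 fold change was -0.41 (SE 0.21, edgeR adjusted p = 0.381). Map1lc3b (chr8:121590361-121598760), the LC3B gene, was at 107, 94.5 and 101 CPM in WT and 78.4, 88.0 and 93.1 CPM in Nfkb2-/- libraries. All Nfkb2-/- values were lower, by a margin smaller than the spread within either group, and the log2 fold change was -0.22 (SE 0.14, edgeR adjusted p = 0.464). Map1lc3a (chr2:155276297-155278073), the LC3A gene, had 115 to 238 counts per library, with 5.65, 3.54 and 7.57 CPM in WT and 6.71, 4.25 and 3.99 CPM in Nfkb2-/- libraries. Its groups overlapped throughout, with a log2 fold change of -0.17 (SE 0.34, edgeR adjusted p = 0.839) that turned to 0.11 without WT replicate 3.

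The balance of the LC3 genes was compared within libraries, which does not depend on scaling between them. Per kilobase of exon, Map1lc3a stood at 33.4%, 23.8% and 47.7% of the Map1lc3b level in WT and at 54.5%, 30.7% and 27.2% in Nfkb2-/- libraries. The log2 ratio was -1.57 ± 0.50 (SD, n = 3) in WT and -1.49 ± 0.53 in Nfkb2-/- cells. A difference of 0.09 was within the spread of either group (two-sided exact permutation test, p = 0.8, where 3 against 3 libraries cannot give a p below 0.1).

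**Figure D3:**
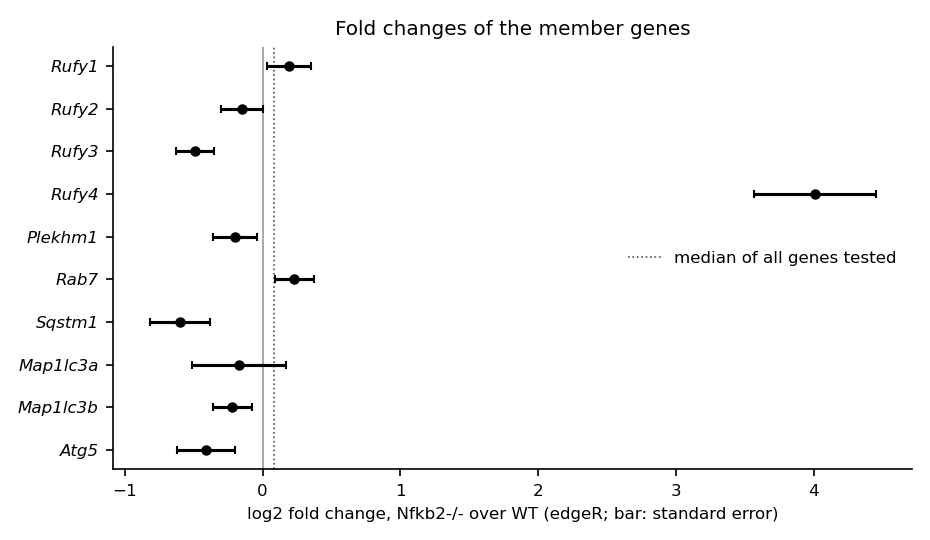
Log2 fold change of each member, Nfkb2-/- over WT, from edgeR, with its standard error as a bar and the median of all genes tested as a dotted line. Rufy4 lies at 4.01, and the other members lie between -0.60 and 0.23.

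Among the 9 members other than Rufy4, 0 were differentially expressed in edgeR (adjusted p under 0.05 over all genes and fold change over 1.2), 2 had an unadjusted p under 0.05, and DESeq2 called 1, Rufy3, and limma voom 0. Over all 21849 genes tested, edgeR called 248 (1.14%), with 99 higher (0.453%) and 149 lower (0.682%) in Nfkb2-/- cells, DESeq2 called 1878 (8.6%) and limma voom 488 (2.23%), and 17.1% had an unadjusted p under 0.05. The libraries of the genotypes did not overlap for 4 of the 9, with Rab7 higher and Rufy3, Sqstm1 and Map1lc3b lower. Among all genes, 24.7% did not overlap, 12.7% with Nfkb2-/- cells higher and 12% with them lower. The median log2 fold change of the 9 members was -0.20, beside 0.08 for all genes and -0.02 for the 10646 genes averaging 5 CPM or more.

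Per kilobase of exon, the order of the members was led by Sqstm1 and Rab7 in both genotypes. In WT cells, mean levels were 118 CPM per kilobase for Sqstm1 and 87.1 for Rab7, whose ranges overlapped, followed by 32.1 for Atg5, 13.4 for Map1lc3b, 10.4 for Plekhm1 and 7.3 for Rufy3. Rufy2 at 5.91, Rufy1 at 5.37 and Map1lc3a at 4.73 CPM per kilobase overlapped with their neighbours in that order, and Rufy4 at 0.408 stood 10th, below all libraries of Map1lc3a. In Nfkb2-/- cells Rab7 was first at 102 and Sqstm1 second at 77.8 CPM per kilobase, without overlap. There Rufy4 stood 6th at 6.53 CPM per kilobase, below Plekhm1 at 9.09, and overlapped with the next in order, Rufy1 at 6.11, while Map1lc3a was last at 4.22.

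Overlapping gene models touch several members. In GENCODE M21, exons on the opposite strand overlap those of Rufy2 (Hnrnph3), Plekhm1 (Arhgap27os1), Rab7 (Gm5577), Sqstm1 (Mrnip) and Map1lc3b (Zcchc14). Whether counting used the strand is not given in the sources used here, so reads in these overlaps could have gone to either gene. Hnrnph3 was the most abundant of these neighbours, at 28.4 to 32.7 CPM in WT and 19.4 to 28.2 CPM in Nfkb2-/- libraries. The others were lower, with Mrnip at 0.447 to 1.39 CPM, Zcchc14 at 0.711 to 3.61 CPM, Gm5577 at 0.929 to 3.26 CPM and Arhgap27os1 at no more than 4 counts. Genes inside a member without shared exons were Gm16135 in Rufy2, at 10 to 31 counts, Gm44187 in Rab7, at 14.3 to 30.3 CPM, and Mir1929 in Atg5, at no more than 7 counts. No gene in the annotation overlaps Rufy1, Rufy3, Rufy4 or Map1lc3a. Rufy1 and Sqstm1 lie 178.5 kb apart on chromosome 11, and their fitted changes had opposite signs.

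Around Rufy4, the next gene downstream on the same strand was the one that stood out. Cxcr2, which encodes a chemokine receptor of neutrophils and begins 5.8 kb beyond the end of Rufy4, was at 4.41, 12.0 and 1.31 CPM in WT and at 93.1, 91.5 and 65.1 CPM in Nfkb2-/- libraries. The groups did not overlap and the log2 fold change was 3.82 with a standard error of 0.71, but the difference just missed the threshold in edgeR (adjusted p = 0.0568). In DESeq2 it passed (adjusted p = 8.58e-08), as it did in limma voom (adjusted p = 0.0213), and with 1 library left out the edgeR adjusted p ran from 0.011 to 0.259. The granulocyte markers summed to 117 to 125 CPM in Nfkb2-/- libraries and 83.7 to 227 CPM in WT, but S100a8 made up most of the Nfkb2-/- sum. Its mean was 67.3 CPM in WT and 87.1 CPM in Nfkb2-/- libraries. The other 6 tested had a fitted change below 0, Ngp at -1.81 and Ltf at -1.60, and the groups overlapped for all 7. Which cells carried the Cxcr2 transcript was not tested. Tns1, an actin-binding focal adhesion gene that begins 1.1 kb before Rufy4 and runs the other way, was at 85.3, 78.1 and 20.3 CPM in WT and at 84.4, 94.2 and 88.2 CPM in Nfkb2-/- libraries. Apart from the low value of WT replicate 3 these libraries were alike, and the groups overlapped. Cxcr1, 43.6 kb away, had 0 to 12 counts per library, and Mir1928, at 58.3 kb, 0 or 1. Arpc2, a subunit of the actin-nucleating Arp2/3 complex at 87.9 kb, was at 517 to 671 CPM in WT and 524 to 595 CPM in Nfkb2-/- libraries, with a log2 fold change of -0.01 (SE 0.17, edgeR adjusted p = 0.975).

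**Figure D4:**
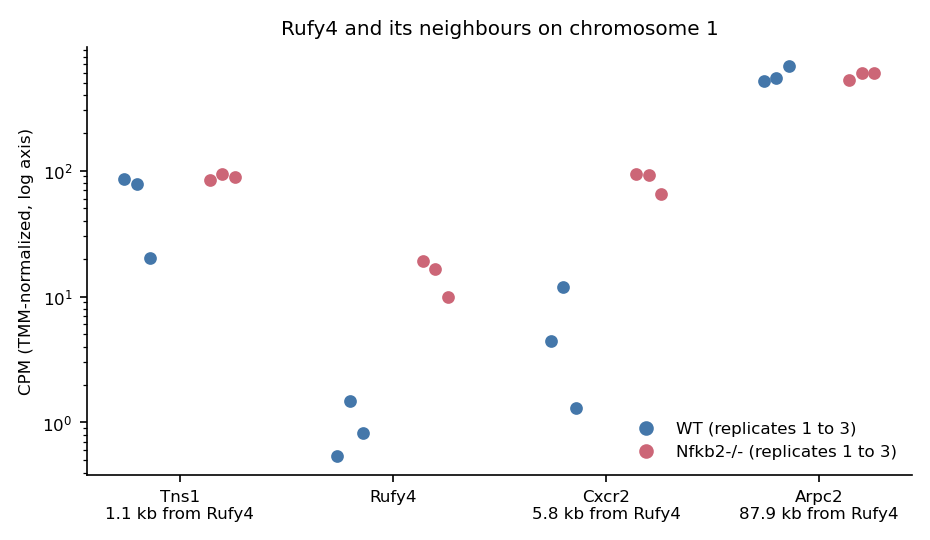
TMM-normalized CPM on a log axis for Rufy4 and the genes within 100 kb that passed the count filter, with the 3 WT libraries in blue and the 3 Nfkb2-/- libraries in red. Rufy4 and Cxcr2 are separated by genotype, whereas Tns1 and Arpc2 overlap.

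The genes whose profile over the 6 libraries lay nearest to that of Rufy4 were sought among the 11064 genes averaging 5 CPM or more in either genotype. Likeness was the Euclidean distance between log2 CPM values centred on each gene's mean, and since it follows the contrast that chose Rufy4, the values are a description. The nearest was Dpy19l3, a C-mannosyltransferase gene, at a distance of 0.58, with 2.49, 4.86 and 3.41 CPM in WT and 54.7, 56.7 and 47.4 CPM in Nfkb2-/- libraries. Fbp1, the gluconeogenic fructose-1,6-bisphosphatase, followed at 0.74, with 0.166 to 0.492 CPM in WT and 2.90 to 7.09 CPM in Nfkb2-/- libraries. Next came Syt6 at 1.04, Gm49205 at 1.21 and Ccnd2, the cyclin D2 gene, at 1.29. The groups did not overlap for any of these 5 genes, all higher in Nfkb2-/- libraries, but their levels differed, Ccnd2 being at 37.6, 169 and 69.3 CPM in WT. Cxcr2 ranked 26th by this distance. Of the IL-4 response genes described next that reached this level, Alox15 ranked 7th, Ccl17 10th and Ccl24 12th, followed by Mgl2 at 110, Chil3 at 318 and Cish at 456. The rest of the list lay further away and was spread widely, with Arg1 at 1064, Irf4 at 3818, Mrc1 at 7027, Stat6 at 9128, Il4ra at 9396 and Ccl22 last at 9451.

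Because RUFY4 is known as an IL-4-induced protein and all cultures received IL-4, genes of the IL-4 response were set beside it. Of 20 tested, edgeR called 1, Ccl17, a chemokine gene for CCR4-bearing T cells, at 161, 361 and 432 CPM in WT and 2380, 2470 and 2360 CPM in Nfkb2-/- libraries (log2 fold change 2.92, SE 0.37, adjusted p = 0.0307). This call was lost without WT replicate 1 (adjusted p = 0.125) and without any one of the Nfkb2-/- libraries (adjusted p = 0.0876, 0.163 and 0.156 for replicates 1, 2 and 3). In each of those settings 0 genes were called over all genes, so no gene could keep a call. The log2 fold change of Ccl17 ranged from 2.6 to 3.21 over the 14 alternatives. DESeq2 called 5 of the 20 and limma voom 2, and 6 had an unadjusted edgeR p under 0.05, 5 higher and 1 lower. Over all genes tested, edgeR called 1.14%, DESeq2 8.6% and limma voom 2.23%, and 17.1% had an unadjusted edgeR p under 0.05. The libraries of 8 of the 20 did not overlap, 6 with Nfkb2-/- cells higher and 2 with them lower, beside 24.7%, 12.7% and 12% of all genes. The median log2 fold change of the list was 0.42, beside 0.08 for all genes. The lipoxygenase gene Alox15 was at 1.21, 9.23 and 1.76 CPM in WT and 46.6, 38.0 and 36.0 CPM in Nfkb2-/- libraries, and the chitinase-like gene Chil3 at 1150, 1080 and 539 CPM and at 2190, 3070 and 2270 CPM. Neither passed the test (edgeR adjusted p = 0.0877 and 0.0879), nor did Ccl24, Mgl2 or Cish, the remaining genes that were higher without overlap. The receptor and signalling genes had no common direction. Il2rg, Socs1, Irf4 and Cish had log2 fold changes of 0.33, 0.34, 0.14 and 0.94, whereas the genes lower without overlap were Il4ra, at 286, 225 and 340 CPM in WT and 202, 203 and 207 CPM in Nfkb2-/- libraries, and Stat6, at 161, 143 and 222 CPM and at 138, 128 and 119 CPM. Il4ra and Stat6 also missed the threshold (edgeR adjusted p = 0.239 and 0.294). Ccl22, the most abundant gene of the list per kilobase in WT, overlapped between the genotypes at 5890 to 10700 CPM and 5360 to 6070 CPM.

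The wider machinery around the members was described with 7 lists of autophagy and trafficking genes, 103 genes in all and every one tested. None was differentially expressed in edgeR (0 of 103), while 17 had an unadjusted p under 0.05, 3 higher and 14 lower (9.03% and 8.04% of all genes), and DESeq2 called 11 and limma voom 1. Over all genes tested, edgeR called 1.14%, DESeq2 8.6% and limma voom 2.23%, and 17.1% had an unadjusted edgeR p under 0.05. The libraries did not overlap for 26 of the 103, 4 with Nfkb2-/- cells higher and 22 with them lower, beside the 24.7%, 12.7% and 12% of all genes given above. The median log2 fold change was -0.12. Genes of these lists that are named for lying apart between the genotypes were chosen after their values were seen.

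Genes that start autophagosomes and supply their membrane lay mostly on the lower side. Of 22, 8 did not overlap between the genotypes, all 8 lower in Nfkb2-/- cells, and the median log2 fold change was -0.27. Among all genes, 24.7% did not overlap, 12% with Nfkb2-/- cells lower. Ulk1, the kinase that begins the process, was at 64.7, 49.5 and 74.0 CPM in WT and 38.6, 32.3 and 36.6 CPM in Nfkb2-/- libraries (log2 fold change -0.81, SE 0.18, edgeR adjusted p = 0.092). Its partner Atg13 had a log2 fold change of -0.38, and Zfyve1, the phosphatidylinositol 3-phosphate reporter of the omegasome, one of -0.62. The phosphatidylinositol 3-kinase subunit genes Atg14, Becn1, Pik3c3 and Uvrag had log2 fold changes of -0.47, -0.32, -0.32 and -0.60, all without overlap and none past the threshold. Pik3r4 and Nrbf2, of the same complex, overlapped, with log2 fold changes of -0.16 and 0.10. Uvrag was highest in WT replicate 3, at 395 CPM against 260 and 206 CPM in the other WT libraries and 181 to 200 CPM in Nfkb2-/- libraries. Vmp1, a lipid scramblase gene, lay the other way at a log2 fold change of 0.79, with overlapping groups (SE 0.36, edgeR adjusted p = 0.331).

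The conjugation genes around Atg5 and LC3 had the narrowest range of the 7 lists. Of 13, 1 did not overlap, beside 24.7% of all genes. This was the LC3 protease gene Atg4b with a log2 fold change of -0.17, and the list ran from -0.35 to 0.39 around a median of -0.17. Gabarap, the most abundant LC3 relative at 210 CPM per kilobase in WT and 179 in Nfkb2-/- cells, overlapped between the genotypes (log2 fold change -0.23, SE 0.19, edgeR adjusted p = 0.583). Of 11 cargo receptors other than Sqstm1, 9 had a fitted change below 0 and 3 did not overlap, all lower, with a median log2 fold change of -0.31. Among all genes, 24.7% did not overlap, 12% with Nfkb2-/- cells lower. Ncoa4, the ferritin receptor, was at 175, 139 and 193 CPM in WT and 71.6, 112 and 104 CPM in Nfkb2-/- libraries (log2 fold change -0.82, SE 0.22, edgeR adjusted p = 0.123). The mitochondrial receptor gene Bnip3l and Tax1bp1, the most abundant of these receptors per kilobase, overlapped.

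Of 24 genes of the Rab7 cycle, the HOPS complex and lysosome fusion, 6 did not overlap, 1 higher and 5 lower, with a median log2 fold change of -0.06. Over all genes, 24.7% did not overlap, 12.7% with Nfkb2-/- cells higher and 12% with them lower. Arl8b, the lysosomal GTPase that recruits HOPS and RUFY3, was the higher gene, at 220, 267 and 197 CPM in WT and 332, 411 and 359 CPM in Nfkb2-/- libraries (log2 fold change 0.69, SE 0.18, edgeR adjusted p = 0.115). Among the lower ones, the HOPS subunit gene Vps39 had a log2 fold change of -0.70 (SE 0.20, edgeR adjusted p = 0.147) and the lysosomal membrane gene Lamp1 one of -0.28. The core HOPS genes Vps11, Vps16, Vps18 and Vps33a stayed between -0.01 and 0.10. Of 6 genes for endosomal partners of RUFY proteins, 1 did not overlap, beside 24.7% of all genes. This was the JIP4 scaffold gene Spag9, at 1100, 889 and 1440 CPM in WT and 562, 740 and 720 CPM in Nfkb2-/- libraries (log2 fold change -0.76, SE 0.23, edgeR adjusted p = 0.158).

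The list of RUN domain genes and their relatives, 15 in all, showed no common direction, with a median log2 fold change of 0.10 and 3 without overlap. Over all genes the median was 0.08, and 24.7% did not overlap. Plekhm3, a relative of Plekhm1 without the RUN domain, was at 81.0, 85.3 and 73.0 CPM in WT and 36.2, 45.1 and 48.9 CPM in Nfkb2-/- libraries and came closest to the threshold (log2 fold change -0.88, SE 0.16, edgeR adjusted p = 0.0569). Rubcn, whose protein restrains autophagosome maturation, was at 85.8, 56.3 and 127 CPM in WT and 48.4, 47.9 and 47.5 CPM in Nfkb2-/- libraries (log2 fold change -0.90, SE 0.28, edgeR adjusted p = 0.165). The low gene Sgsm1 was at 0.185 to 0.826 CPM in WT and 1.71 to 5.08 CPM in Nfkb2-/- libraries. Fyco1, the adaptor that joins Rab7 and LC3 to kinesin, overlapped, at 58.8 to 104 CPM in WT and 95.8 to 117 CPM in Nfkb2-/- libraries.

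Among 12 genes of the MiT transcription factors, which drive lysosomal and autophagy genes, and of mTORC1, which holds them back, 4 did not overlap, 2 higher and 2 lower. Over all genes the shares were 24.7%, 12.7% and 12%. Rptor, the mTORC1 scaffold subunit, was at 246, 194 and 294 CPM in WT and 147, 129 and 138 CPM in Nfkb2-/- libraries (log2 fold change -0.83, SE 0.18, edgeR adjusted p = 0.0862). Flcn, an mTORC1 regulator at lysosomes, had a log2 fold change of -0.48 (edgeR adjusted p = 0.163). Tfeb and Tfe3, the factors themselves, had log2 fold changes of 0.25 and 0.03 with overlapping groups.

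**Figure D5:**
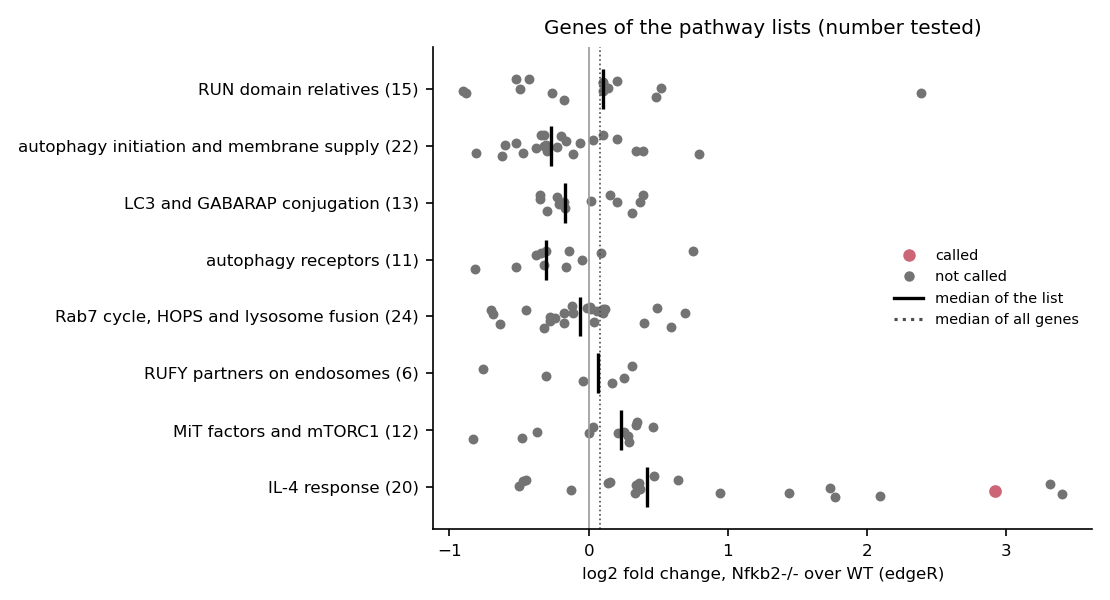
Log2 fold change, Nfkb2-/- over WT, of each tested gene in the 7 autophagy and trafficking lists and the IL-4 response list, with the list median as a black bar, the median of all genes as a dotted line and the number tested in brackets. The initiation genes and receptors lie mostly below 0, with medians of -0.27 and -0.31, and Ccl17 of the IL-4 response is the gene called.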

How the data were processed

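RNA-seq counts of 6 libraries, 3 WT and 3 Nfkb2-/-, were grouped by their sample labels. The authors deposited whole-number counts per Ensembl gene and library, without normalization. HISAT2 and the builds GRCm38 and mm10 are named in the submitters' processing notes, whereas the counting tool, annotation and use of strand are not given in the sources used here. The joined count table was not used, and 0 per-sample columns were left unmapped.

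IDs were named by GENCODE M21 (52073 of 56748). IDs without a name, with 1.01% to 1.748% of counts, stayed out. Named genes with at least 50 counts in total were kept, as in the study's methods. Counts were normalized with TMM and tested with edgeR 4.0.16 (glmQLFit, glmQLFTest, R 4.3.3) over all 21849 genes without covariates, where the study used DESeq2. A call required a Benjamini-Hochberg adjusted p under 0.05 and a fold change over 1.2. The standard error is the log2 fold change over the square root of F. CPM per kilobase used union exon length. Fitting was tested on simulated counts. Replicate numbers were checked for pairing and were not used in the main test. Alternatives were DESeq2 1.42.0, limma 3.58.1 (voom), other scalings and filters, the replicate block and each library left out.

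The members, lists and tests were chosen with earlier results of these data known. Named genes are the members, Nfkb2, the called genes of each list, the 5 genes most like Rufy4, and genes overlapping a member or within 100 kb of Rufy4. Up to 3 of the most abundant genes per list were also planned, but in several lists they are not all named. Other genes were named after their values were seen. Promoters came from RefSeq (GRCm38.p6). Proteins were not analysed here.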

Additional observations from a re-analysis of the deposited data

How the results depend on the processing

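Of 126 results for the 9 members other than Rufy4 under 14 alternatives, 124 kept their direction and their side of the threshold. With the replicate block, without WT replicate 1 and without any one Nfkb2-/- library, 0 genes were called over all genes. In those settings the side of the threshold says nothing about the members, and only the direction can be compared. Map1lc3a ranged from -0.45 to 0.11 with 1 library left out, turning to 0.11 without WT replicate 3, and Rufy3 passed with DESeq2, so that 1 member was called there. The log2 fold change of Rufy4, which is not tested, ranged from 3.71 to 4.48, and was 3.80 without Nfkb2-/- replicate 1. The number of genes called over all genes, 248, moved to 1878 with DESeq2, 488 with limma voom, 397 with filterByExpr, 1625 with no filter beyond 1 count, 459 with at least 10 counts in every library, and ranged from 0 to 1248 with 1 library left out, at 0 without WT replicate 1 or any Nfkb2-/- library and at 1248 without WT replicate 2. Of the 103 autophagy and trafficking genes, 0 in the main test, 11 were called with DESeq2, 1 with limma voom, 1 with filterByExpr, 4 with no filter beyond 1 count, 1 with at least 10 counts in every library, and 0 to 4 with 1 library left out, 4 of them without WT replicate 2 and 1 without WT replicate 3. The causes were not tested. The difference in the log2 ratio of Map1lc3a to Map1lc3b, 0.09, was -0.12 as a difference of medians and ranged from -0.22 to 0.34 with 1 library left out, being -0.16 without WT replicate 2 and -0.22 without Nfkb2-/- replicate 1. Same-numbered libraries deviated together by correlations of 0.26, 0.15 and 0.02, so the numbers were not taken as pairs. With the replicate number as a block, 0 genes were called over all genes, and 3331 had an unadjusted p under 0.05. Other scalings moved the median of all genes by at most 0.09. Rufy4 in WT, at 23 to 48 counts, and Map1lc3a are the members limited by depth.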
